A study of Mus musculus with 4 samples.

Results

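Visium sections of hearts from mice with immune checkpoint inhibitor (ICI) treatment contained patches of spots in which 2 macrophage transcripts, Arg1 and Mmp12, made up a far larger share of the RNA than elsewhere. A Visium spot is a small area of tissue whose transcripts share a positional barcode, so it can hold several cells of different types, or parts of cells. A spot under tissue was taken as a member of this niche when it held at least 5000 transcript molecules (UMIs) and when Arg1 and Mmp12 together reached 0.4% of them. This gave 968 niche spots among 10744 spots under tissue, of which 10587 passed the depth minimum, leaving 9619 remaining spots for comparison. The members were thus chosen by the measured values of these 2 genes, whose levels are given below as a description without a test.

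All 4 sections came from hearts of wild type FVB/NJ mice that, per the series' design text, had been immunized with a peptide of the cardiac myosin heavy chain alpha (MyHCα). The hearts were formalin-fixed and paraffin-embedded, cut at 5 µm and stained with H&E, and every group shares the immunization and both checkpoint antibodies. In 2 sections, called ICI-alone 1 and 2, the treatment was anti-PD-1 + anti-CTLA-4, and the labels record that myocarditis developed in this group. In the other 2 sections, called antibody 1 and 2, the same pair was given with an IL-17A neutralizing antibody, and the labels call this myocarditis rescued. The number 1 or 2 is the batch in the labels, and no source says what a batch stands for. No section without checkpoint antibodies was analysed here, so each comparison is between the treatments, or between places in 1 section. Age, doses and times were not given in the sources used here. Nothing states that the 2 sections of a group came from separate animals, and the p-values then measure only the spread between these sections, which may be technical.

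Arginase 1, encoded by Arg1, splits arginine into ornithine and urea and competes for arginine with the inducible nitric oxide synthase Nos2. Matrix metalloproteinase 12, encoded by Mmp12, is the macrophage elastase. Macrophages of injured hearts take up dead muscle, release proteases and cytokines, and shift their programs under cytokines such as interferon gamma, IL-4, IL-13 and GM-CSF. IL-17A acts on stromal and myeloid cells to induce neutrophil-attracting chemokines, antimicrobial proteins and metalloproteinases, while PD-1 and CTLA-4 restrain T cells.

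Niche spots numbered 213, 468, 239 and 48 in ICI-alone 1, ICI-alone 2, antibody 1 and antibody 2, and 4 values below stand in this order unless stated otherwise. They were 8.55, 15.4, 9.56 and 1.88% of the spots passing the depth minimum, with 95% Wilson intervals, for counting error only, of 7.51, 14.1, 8.47 and 1.42% to 9.71, 16.7, 10.8 and 2.49%. The mean was 11.95% ± 4.81 (SD, n = 2) alone and 5.72% ± 5.43 (SD, n = 2) with antibody. The groups overlapped: antibody 1 lay above ICI-alone 1, and antibody 2 lay far below the other three. In batch 1 the share was higher with antibody and in batch 2 it was higher alone, and no test was applied to it. After every spot passing the depth minimum was thinned to 5000 UMIs, 213, 466, 237 and 48 spots met the rule. These need not be the same spots.

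Niche spots were deeper than the remaining spots of the same section, with median UMIs of 38057, 27428, 19442 and 14773 against 27241, 19332, 18544 and 12343. Summed over the niche, the sections held 7880952, 12744771, 4958386 and 763990 UMIs, so antibody 2 carried the thinnest evidence. In that sum 1 UMI was worth 1.31 CPM, and 3 UMIs 3.93 CPM. CPM, a library-size scaled count, is a gene's UMIs scaled by the total UMIs of the summed spots.

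The median member devoted 1.03, 0.888, 1.30 and 0.811% of its UMIs to the defining pair, and the highest member 3.47, 3.55, 4.57 and 2.22%. The members just inside the threshold had 0.405, 0.403, 0.403 and 0.403%, and the spots just outside it 0.394, 0.395, 0.383 and 0.398%. Arg1 supplied 58.1, 66.8, 64.8 and 59.6% of the pair's UMIs, and every member held UMIs of both genes. Arg1 stood at 6692, 6566, 9130.2 and 5711 CPM in the niche and 136, 349, 76.5 and 57.9 CPM in the remaining spots. Mmp12 stood at 4818, 3267, 4962 and 3869 CPM and 94.1, 151, 68.3 and 51.6 CPM. The niche held 85.6, 81.8, 93.3 and 68.1% of each section's Arg1 UMIs, the lowest share being that of antibody 2. Moran's I, which the authors' deposited table gives for each gene as a score of spatial clustering, was 0.872, 0.821, 0.904 and 0.703 for Arg1 and 0.871, 0.761, 0.889 and 0.678 for Mmp12. Arg1 ranked 10, 16, 2 and 12 among all listed genes by this score. Arg1 lies on chromosome 10 (24915207 to 24927470) and Mmp12 on chromosome 9 (7344397 to 7360461) of GRCm38.p6, the mm10 build of the files.

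The members were clustered on the spot grid, where each spot has 6 neighbours. They formed 5, 18, 3 and 6 connected patches, the largest of which held 170, 256, 131 and 20 spots. The 3 largest patches together held 96.2, 72.2, 100 and 93.8% of the members. All 6 neighbours were also members for 49.8, 28.0, 59.8 and 18.8% of the niche spots, the highest share being in antibody 1 and the lowest in antibody 2. ICI-alone 2 had the most niche spots and the most patches, and antibody 2 had 3 small patches and 3 lone spots. The median distance of members from the tissue edge was 5, 4, 4 and 2 grid steps, against 3, 3, 6 and 2 for the remaining spots. The niche was deeper in the tissue than the rest in both ICI-alone sections, shallower in antibody 1 and equal in antibody 2.

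**Figure D1:**
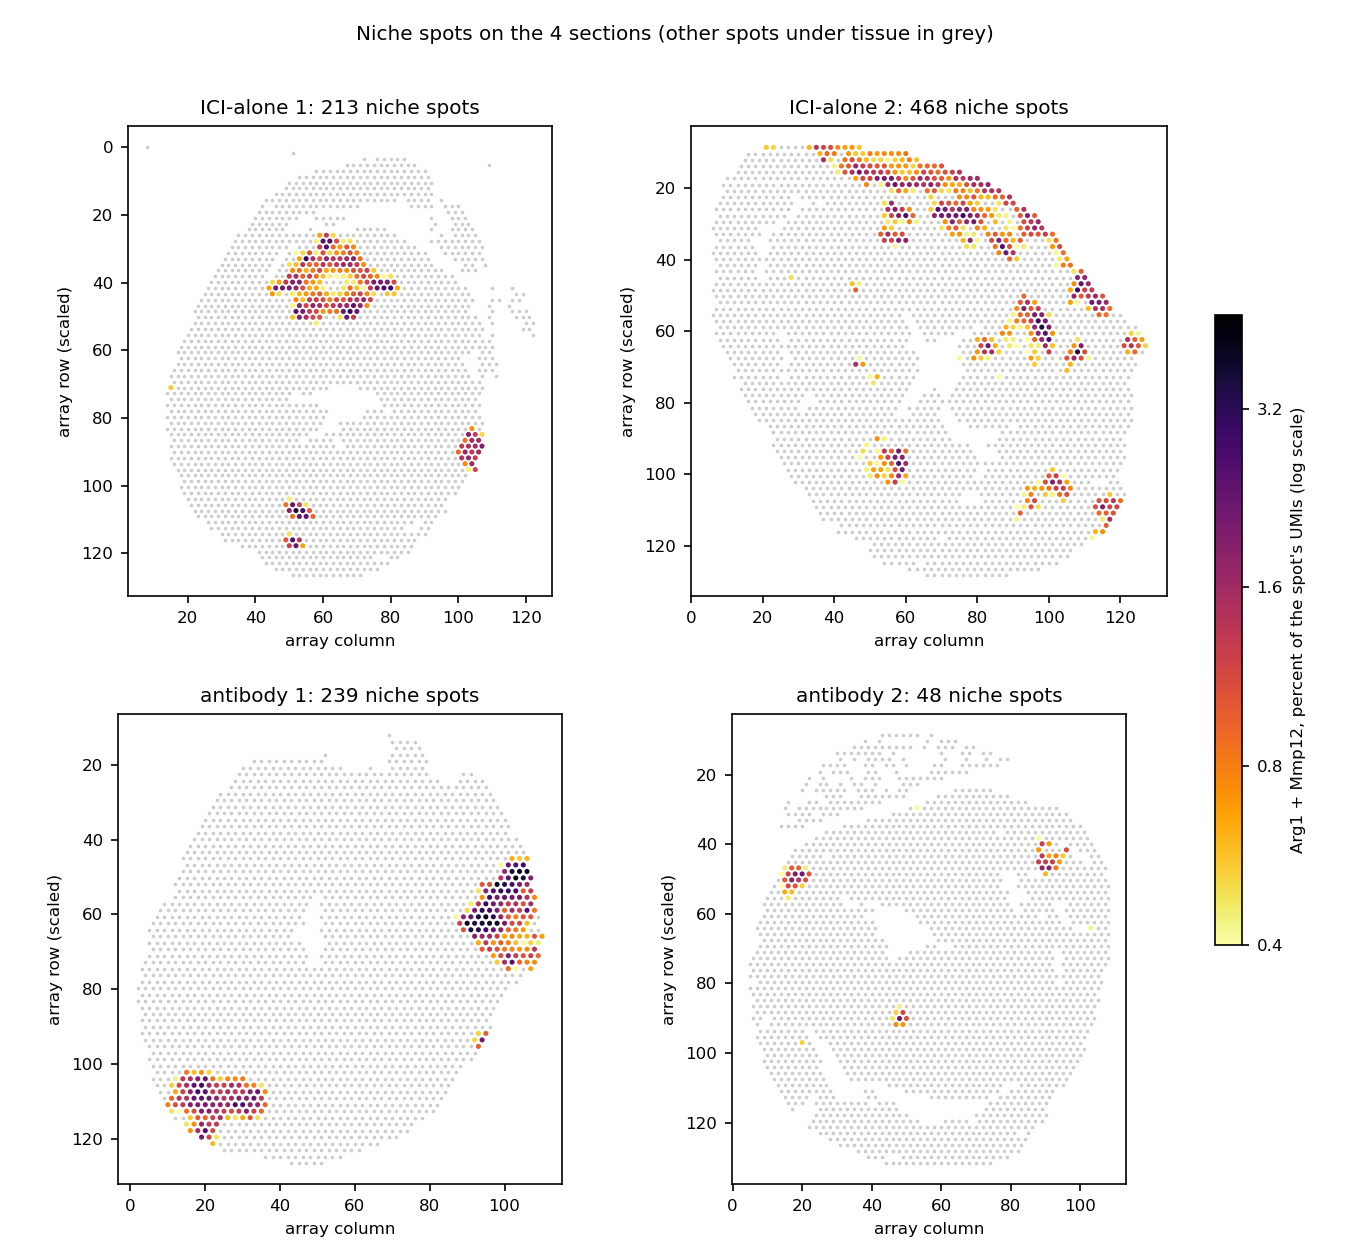
Each panel is 1 section, with spots under tissue drawn at their array column and scaled array row. Niche spots are coloured by the Arg1 and Mmp12 share of their UMIs in percent, on a log scale, and all others are grey. The 213, 468, 239 and 48 niche spots form 5, 18, 3 and 6 connected patches, the most in ICI-alone 2.

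The macrophage label held for broad phagocyte genes and not for several common defining genes. Of 18 macrophage identity genes, 10 were at least 2-fold higher in the niche in all 4 sections and none was 2-fold lower in all of them, against a background of 3.80% of 19284 genes higher and 5.57% lower by the same rule. Since the spots were chosen from the same counts, this is a description without a test, and nothing is read from the background. The lipopolysaccharide co-receptor Cd14 stood at 708, 775, 733 and 877 CPM in the niche and 72.8, 146, 33.7 and 42.0 CPM in the remaining spots. The integrin Itgam stood at 658, 672, 404 and 319 and 70.1, 118, 25.8 and 39.2 CPM, and the lysosomal protein Cd68 at 609, 655, 368 and 283 and 140.0, 199, 48.1 and 77.1 CPM. Each of these was well above the surroundings in all 4 sections. The macrophage receptor Adgre1, in contrast, was low everywhere, at 20.7, 37.4, 15.1 and 7.85 CPM in the niche and 21.8, 24.5, 9.77 and 16.5 CPM outside, and higher in the niche only in ICI-alone 2 and antibody 1. The complement genes C1qa, C1qb and C1qc, singled out after their values were seen, were lower in the niche than outside in every section, with C1qa at 293, 568, 238 and 120.4 CPM against 564, 695, 267 and 444 CPM. Lysozyme 2, Lyz2, reached 28.7, 39.4, 16.1 and 20.9 CPM against 15.9, 16.97, 5.67 and 8.97 CPM.

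Several genes of resident heart macrophages were lower in the niche. None of 14 was 2-fold higher in all sections and 5 were 2-fold lower. Lyve1 had 1, 7, 4 and 0 UMIs in the niche, and the scavenger receptor Cd163 reached 0.761, 1.18, 1.41 and 3.93 CPM against 16.3, 13.8, 12.1 and 14.6 CPM outside. The selenium carrier Selenop stood at 206, 440.2, 126 and 102 CPM against 950.3, 1005, 894 and 1017 CPM. Of 14 monocyte genes, 4 were 2-fold higher and 1 lower. The C-type lectins Clec4d and Clec4e were among the 4, with Clec4d at 206, 181, 185 and 152 CPM against 15.8, 26.3, 3.66 and 4.33 CPM. The monocyte receptor Ccr2, singled out after its values were seen, was lower in the niche, at 91.9, 132, 110.1 and 65.4 CPM against 241, 195, 115 and 177 CPM.

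The genes that stood farthest above their surroundings included Mmp13, Ccl24, Adam8, F7 and Slc7a11. Over all genes, 732 were at least 2-fold higher in the niche in every section (3.80%), and 1074 at least 2-fold lower (5.57%). Ordered by the smallest of the 4 log2 ratios, the leading gene was collagenase 3, Mmp13, at 151, 77.9, 155 and 156 CPM in the niche and 4.44, 5.21, 5.13 and 4.99 CPM outside. The eosinophil chemokine Ccl24 followed, at 80.3, 41.4, 294 and 253 CPM against 1.38, 2.69, 5.06 and 4.21 CPM, and then the membrane protease Adam8, at 1256, 1031, 1251 and 1140.1 CPM against 46.6, 93.9, 30.5 and 34.5 CPM. All 3 had log2 ratios of at least 3.44 in each section.

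Coagulation factor genes F7 and F10 were also among the 20, with F10 at 495, 376, 587 and 698 CPM against 33.0, 44.1, 18.8 and 28.6 CPM. The cystine transporter Slc7a11 stood at 164, 150.4, 263 and 268 CPM against 5.98, 15.0, 6.42 and 6.39 CPM, and the arginine transporter Slc7a2 at 587, 478, 1420.0 and 1689.8 CPM against 37.9, 60.7, 47.4 and 56.9 CPM. The galectin Lgals3 was abundant, at 5466, 3714, 5046 and 5339 CPM against 318, 454, 191 and 254 CPM. The interleukin-7 receptor Il7r, usually read as a lymphocyte gene, stood at 103, 59.6, 82.3 and 57.6 CPM against 3.74, 5.59, 3.02 and 3.74 CPM, whereas the T cell receptor subunit Cd3e was at 19.9, 15.9, 56.1 and 43.2 and 16.1, 14.0, 16.8 and 22.5 CPM. The remaining genes of the 20 were Ccl6, Hilpda, Il1a, Dcstamp, Cxcl3, Ccl3, AA467197, Ccl4, Galnt6, Spp1 and Il1rn. For each of the 20 genes the log2 ratio was smallest in ICI-alone 2.

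Heart muscle genes stood lowest. The 10 genes with the most negative ratios were Car14, Fabp3, Myh6, Chrm2, Hrc, Ckm, Kcnj11, Pln, Mylk3 and Eno3, all known from striated muscle metabolism, contraction, calcium handling or excitation. Of 19 cardiomyocyte genes, 15 were at least 2-fold lower in all 4 sections. The alpha myosin heavy chain Myh6 stood at 224, 137, 484 and 996 CPM in the niche and 10182, 5878, 24792 and 18214 CPM outside. In sums over spots, fewer cells of a type and less RNA per cell cannot be told apart.

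**Figure D2:**
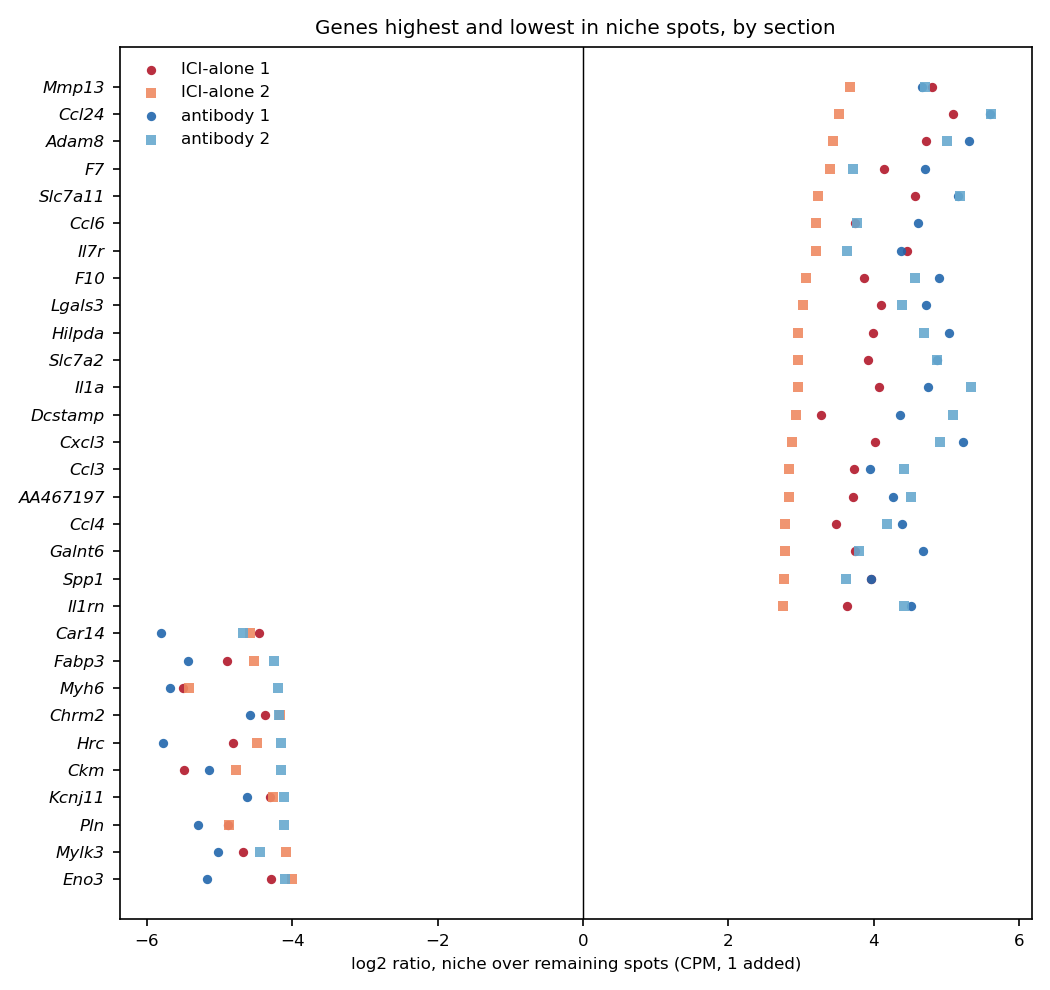
The log2 ratio of CPM (1 CPM added) in niche spots over remaining spots, 1 point per section, for the 20 genes that stood highest and the 10 that stood lowest. Every gene drawn lies on 1 side of 0 in all 4 sections, and ICI-alone 2 tends to lie nearest to 0 among the 20.

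Among the other gene groups, arginine, hypoxia and IL-1 genes were often higher in the niche. Of all genes, 3.80% were 2-fold higher in all 4 sections. Of 17 arginine and polyamine genes other than Arg1, 6 were 2-fold higher in all sections and 1 lower. Nos2 stood at 737, 626, 2121 and 2982 CPM against 85.9, 129.6, 82.4 and 94.6 CPM, and the mitochondrial arginase Arg2 at 22.8, 26.0, 28.4 and 39.3 CPM against 4.34, 6.97, 1.29 and 1.46 CPM. Of 20 hypoxia and glycolysis genes, 10 were higher and none lower. The glucose transporter Slc2a1 stood at 726, 644, 1167 and 1465 CPM against 105, 157, 68.9 and 92.5 CPM, and the lipid droplet protein Hilpda at 210.3, 178, 412 and 321 CPM against 12.3, 22.0, 11.6 and 11.4 CPM. Of 19 IL-1 and inflammatory cytokine genes, 11 were higher and none lower, including Il1a, Il1b and the receptor antagonist Il1rn, which reached 2677, 2646, 3200.2 and 3761 CPM against 216, 393, 139 and 175 CPM.

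Of 22 metalloproteinase and inhibitor genes, 9 were higher and none lower, among them Mmp9 and the urokinase receptor Plaur. Of 18 lipid and scar macrophage genes, 9 were higher and 3 lower. Osteopontin, Spp1, stood at 2263, 2489.7, 746 and 577 CPM against 145, 364, 47.2 and 46.0 CPM, and the lipid receptor Trem2 at 175, 201, 110.1 and 81.2 CPM against 30.0, 49.9, 9.92 and 16.9 CPM. Of 14 osteoclast and cell fusion genes, 6 were higher and none lower, including the fusion protein Dcstamp and the proton pump subunit Atp6v0d2 (53.5, 34.5, 72.6 and 31.4 CPM against 1.59, 10.4, 0.375 and 0.997 CPM). Of 15 iron, heme and NRF2 genes, 7 were higher and 2 lower, with heme oxygenase Hmox1 at 2285, 1929, 1439 and 1306 CPM against 241, 317, 72.8 and 119 CPM. Of 20 neutrophil genes, 7 were higher and none lower, for example the activating receptor Trem1 at 55.7, 75.8, 66.4 and 78.5 CPM against 9.82, 23.7, 3.82 and 5.64 CPM.

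Of 21 T cell and 14 dendritic cell genes, 2 and 2 were 2-fold higher in all sections, where 3.80% of all genes were. Their sums were higher in the niche in each section. The T cell list stood at 391, 346, 816 and 545 CPM against 199, 203, 204 and 263 CPM outside. Il7r is part of this sum, at 103, 59.6, 82.3 and 57.6 CPM against 3.74, 5.59, 3.02 and 3.74 CPM. Cd3e, given above, differed little between the niche and the remaining spots in the ICI-alone sections. The dendritic cell list stood at 813, 792, 1562 and 1823 CPM against 355, 438, 362 and 486 CPM. Of 29 collagen and matrix genes, 1 was higher and 1 lower, where 3.80% and 5.57% of all genes were. Their sum was 18136, 30118, 11805 and 5959.5 CPM against 14156, 32768, 4259 and 5574 CPM, lower in the niche only in ICI-alone 2. Fibrillar collagen Col1a1 stood at 4471, 8155, 1615 and 688 CPM against 2284, 7642, 273 and 423 CPM, higher in the niche in each section but by little in ICI-alone 2. Of 16 alternative activation genes other than Arg1, 6 were higher and 1 lower. The mannose receptor Mrc1 and Retnla, both classical members of this group, were at 92.8, 115, 55.1 and 19.6 and 5.58, 5.88, 11.3 and 6.54 CPM in the niche against 136, 172, 81.2 and 104 and 111, 17.8, 165 and 145 CPM outside. Pdcd1lg2, Ccl17, Ccl24 and Chil3 had the largest mean ratios of this group.

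Members differed among themselves along the level of the defining pair. Spots were divided by the pair's share into 0.4 to below 0.8%, 0.8 to below 1.6%, and 1.6% or more. The last held 46, 74, 90 and 6 spots. Slc2a1 stood at 527, 465, 788 and 1261 CPM in the lowest band and 1187, 1146, 1662 and 1871 CPM in the highest, higher in all 4 sections. Il1f9, which encodes an IL-36 cytokine, stood at 101, 113, 71.9 and 154 CPM and 215, 238, 195 and 299 CPM, also higher in all 4. Spp1 was higher in the highest band too, at 3449, 3843, 864 and 907 CPM against 1517, 1861, 636 and 514 CPM. Col1a1 and the neutrophil chemokine Cxcl5 went the other way. Col1a1 stood at 6367, 9814, 2197 and 693 CPM in the lowest band and 2207, 5212, 874 and 386 CPM in the highest, and Cxcl5 at 406, 376, 120.5 and 112 CPM and 212, 134, 63.0 and 19.3 CPM. Cd3e did not order the same way everywhere: 17.7, 18.0, 93.6 and 61.5 CPM in the lowest band and 22.6, 11.6, 26.4 and 28.9 CPM in the highest, so it was lower in the richest spots of 3 sections and slightly higher in ICI-alone 1. The highest band of antibody 2 held only 103685 UMIs, so its Cd3e and Cxcl5 values rest on few molecules. These bands are cut from the values that chose the spots, and no test was applied.

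Levels also differed by position. Members whose 6 neighbours were all members formed an interior of 106, 131, 143 and 9 spots. Arg1 stood at 7581, 8823, 11133 and 9297 CPM in the interior, 5885, 5754, 6232 and 4848 CPM in the other members and 1158, 1353, 1261 and 806 CPM 1 grid step outside. Nos2 was higher in the other members than in the interior in both ICI-alone sections, and the reverse with antibody, at 521, 591, 2191 and 3383 CPM in the interior, 933, 639, 2020.3 and 2885 CPM in the other members, 511, 405, 925 and 1212 CPM 1 step outside and 142, 112, 189 and 178 CPM 3 steps outside. T cell genes did not peak in the interior. Their summed level includes Il7r. It was 355, 287, 732 and 493 CPM in the interior and 424, 368, 937 and 557 CPM in the other members. It was 429, 327, 1035 and 763 CPM 1 step outside, above the interior in all 4 sections. In ICI-alone 2 the other members stood highest. Beyond 4 steps the sum was only 136, 132, 102 and 208 CPM, so it was highest at and next to the niche. Ccl17 peaked in the other members in both ICI-alone sections and antibody 1, and in the interior of antibody 2. Its level was 33.1, 19.9, 474 and 1296 CPM in the interior, 99.96, 32.4, 699 and 768 CPM in the other members and 64.2, 27.5, 519 and 357 CPM 1 step outside.

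Col1a1 and S100a9 were lower with antibody at every position. Col1a1 was highest 1 step outside the niche in both ICI-alone sections, at 7229 and 12430.5 CPM, and also in antibody 2. It stood at 1356 and 894 CPM there with antibody. The calprotectin subunit S100a9 stood at 321, 414, 135 and 179 CPM in the outer members, 330.2, 399.6, 75.2 and 81.1 CPM 1 step outside and 138, 186, 5.32 and 12.0 CPM more than 4 steps outside. Away from the niche it was thus far higher in the ICI-alone sections than with antibody. Myh6 went with distance from 126, 60.8, 227 and 297 CPM in the interior to 12568, 9926, 27769.9 and 19732 CPM beyond 4 steps.

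**Figure D3:**
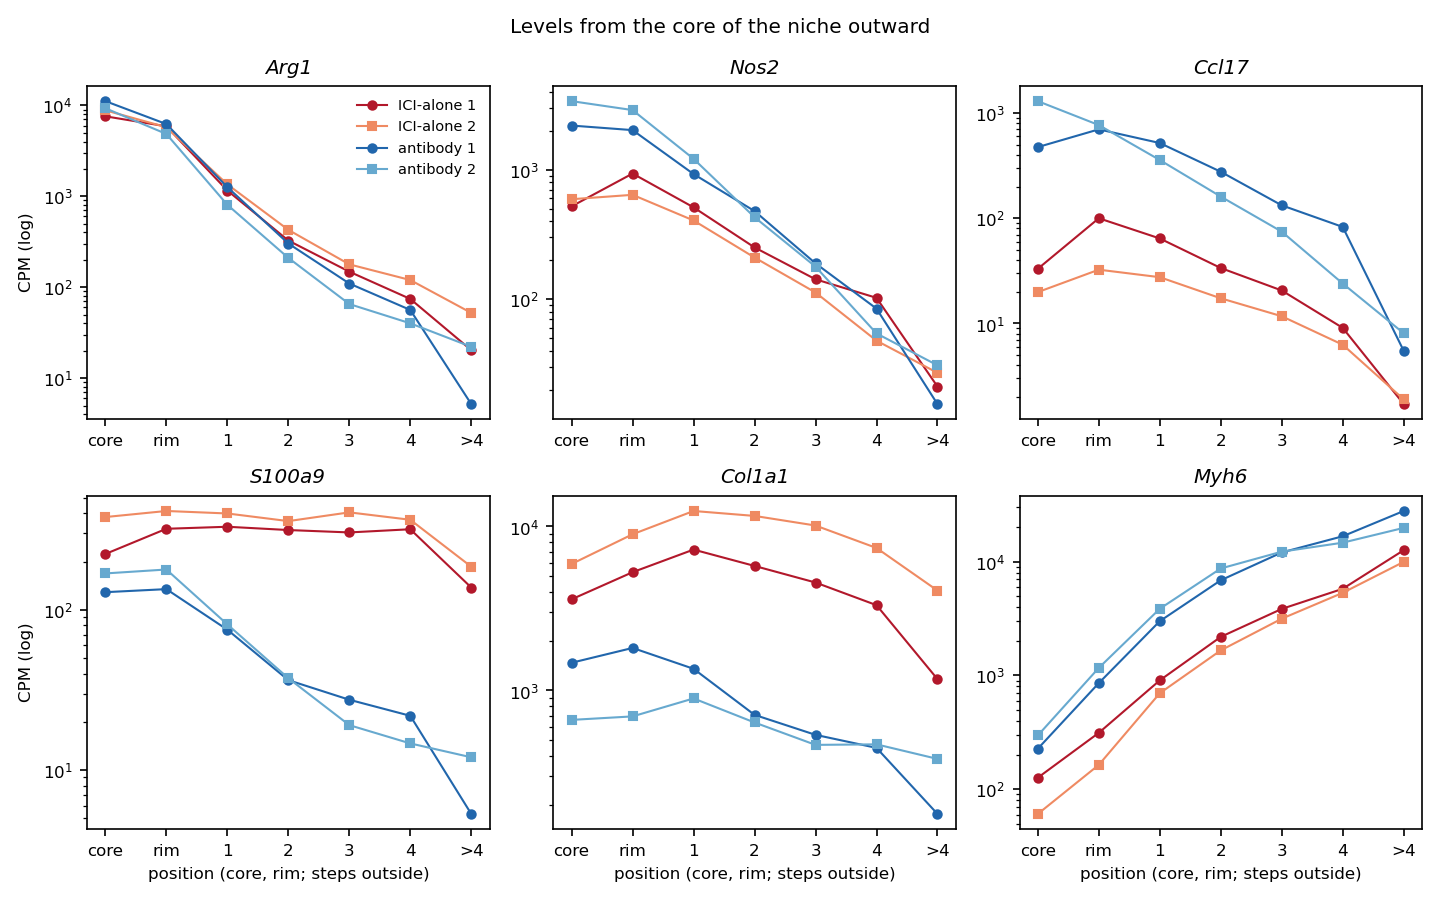
CPM, on a log axis, of selected genes against position: niche interior (core), other niche spots (rim), and 1, 2, 3, 4 and over 4 grid steps outside, 1 line per section. Arg1 drops steeply over the first step outside, and S100a9 is far lower away from the niche with antibody than in ICI-alone sections.

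Inside the niche, the treatments were compared over the 4 section sums. The rule used the Arg1 and Mmp12 counts of these spots and not the treatment, and these genes were left out of all calls. Here a level is a scaled CPM, which is CPM after trimmed-mean scaling of the 4 niche sums, and a log2 difference is antibody minus ICI alone, with its standard error (SE). A gene is said to have risen or fallen with antibody where its Benjamini-Hochberg adjusted p from edgeR's quasi-likelihood test was below 0.05, and values are given for ICI-alone 1 and 2 and then antibody 1 and 2. Of 13266 genes tested, 737 rose and 808 fell (5.56% and 6.09%, together 11.6%). Scaling by library size alone moved the median of all genes from -0.0026 to 0.17 on the log2 scale and the split to 1214 risen and 393 fallen, so changes here are relative to the median gene. Leaving out antibody 2, the section with 48 niche spots, left 0 genes past the threshold with edgeR, with 3744 at an unadjusted p below 0.05 and a lowest adjusted p of 0.0960. No treatment call inside the niche holds without antibody 2. Without ICI-alone 2 or antibody 1, 702 and 893 genes passed.

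**Figure D4:**
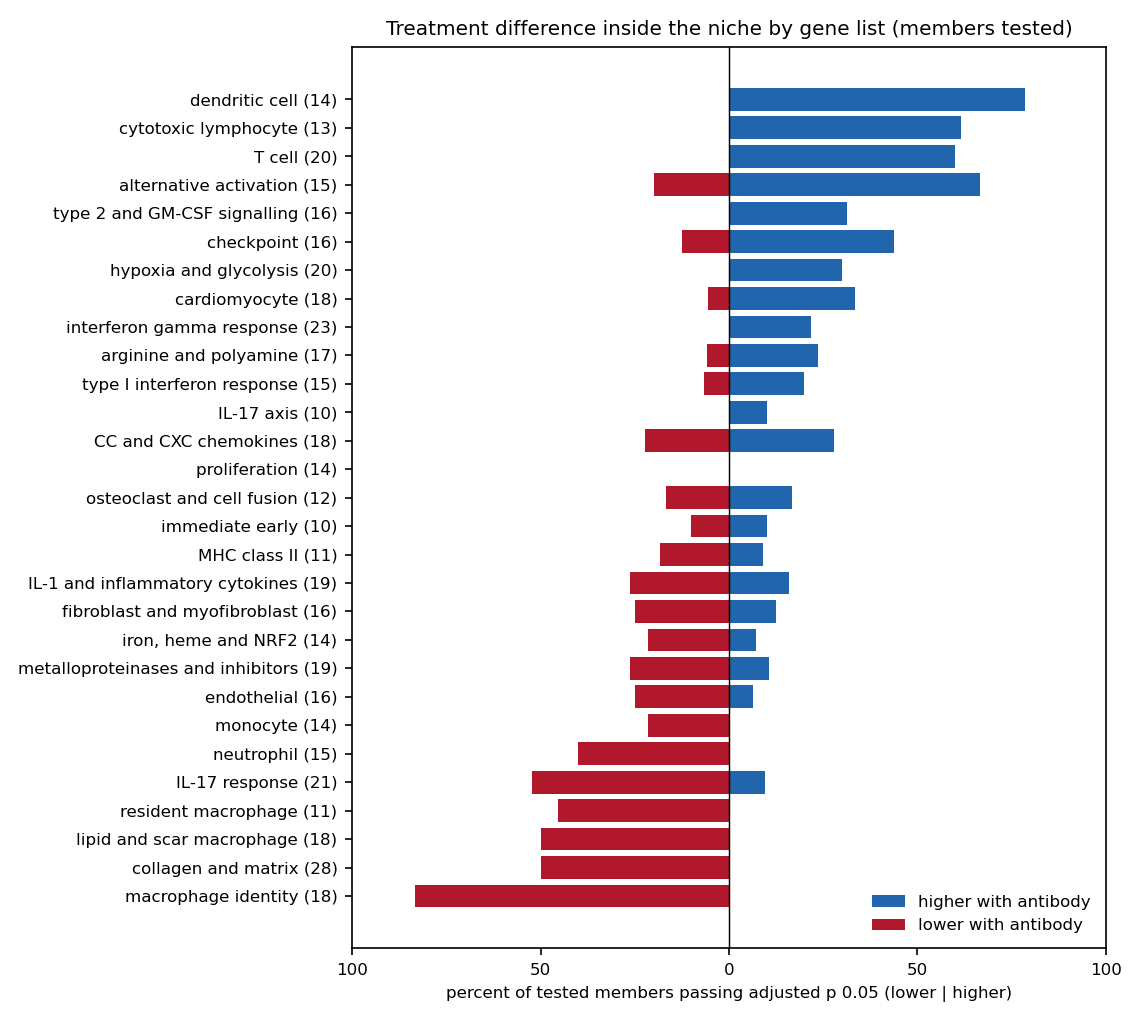
Bars give, for each list with at least 10 tested members, the percent that passed the edgeR threshold inside the niche, to the right where higher with antibody and to the left where lower, with the number tested in brackets. The macrophage identity list has the longest bar to the left (15 of 18) and the dendritic cell list the longest to the right (11 of 14).

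Macrophage identity and lipid-handling genes fell. Of 18 macrophage identity genes, 15 fell and 0 rose, with a median log2 difference of -0.92 where the median of all genes was -0.0026; by library size alone 11 fell and 0 rose. Cd68 stood at 656 and 689 scaled CPM alone and 349 and 268 with antibody (log2 difference -1.11 ± 0.16 SE, edgeR adjusted p = 0.00427). Itgam stood at 709 and 707 alone and 384 and 302 with antibody (log2 difference -1.03 ± 0.15 SE, edgeR adjusted p = 0.00484), and the apoptotic-cell receptor Mertk at 114 and 128 alone and 59.2 and 50.8 with antibody (log2 difference -1.10 ± 0.15 SE, edgeR adjusted p = 0.00360). The levels of these 3 genes did not overlap between treatments. Of all genes called inside the niche, 99.8% went the same way in both batches, against 69.9% of genes tested. Such separation, here and below, therefore adds no support to a call. Lyz2, at 30.9 and 41.5 alone and 15.3 and 19.8 with antibody, and Adgre1, at 22.3 and 39.4 alone and 14.4 and 7.44 with antibody, also fell (edgeR adjusted p = 0.0151 and 0.0377).

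Of 18 lipid and scar macrophage genes, 9 fell and 0 rose, with a median log2 difference of -1.17. Spp1 stood at 2435 and 2621 scaled CPM alone and 709 and 547 with antibody, a 4.004-fold lower level with antibody (log2 difference -2.001 ± 0.17 SE, edgeR adjusted p = 0.000683). Trem2 stood at 188 and 212 alone and 105 and 76.9 with antibody (log2 difference -1.08 ± 0.16 SE, edgeR adjusted p = 0.00517). The lysosomal protease Ctsb stood at 3749 and 3581 alone and 1672 and 1266 with antibody (log2 difference -1.32 ± 0.17 SE, edgeR adjusted p = 0.00341). The glycoprotein Gpnmb, another gene of this group, stood at 85.2 and 32.0 alone and 29.7 and 4.96 with antibody and did not pass (edgeR adjusted p = 0.119). The apolipoproteins Apoe and Apoc2 and the scavenger receptor Marco were among the 10 largest falls of the niche. Apoe stood at 239 and 1344 alone and 124 and 52.1 with antibody (log2 difference -3.03 ± 0.66 SE, edgeR adjusted p = 0.0210), with ICI-alone 2 several times above the other sections. Marco stood at 30.0 and 79.3 alone and 7.09 and 4.96 with antibody (log2 difference -3.04 ± 0.51 SE, edgeR adjusted p = 0.00759).

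Resident macrophage genes went the same way: 5 of 11 fell and 0 rose. Mrc1 stood at 99.8 and 121 scaled CPM alone and 52.3 and 18.6 with antibody (log2 difference -1.37 ± 0.27 SE, edgeR adjusted p = 0.0144), and the platelet factor 4 gene Pf4 at 281 and 248 alone and 105 and 38.4 with antibody (log2 difference -1.70 ± 0.29 SE, edgeR adjusted p = 0.00833). Of 14 monocyte genes, 3 fell and 0 rose, including Vcan. Leaving out antibody 1 raised the edgeR adjusted p to 0.170 for Lyz2, 0.112 for Adgre1, 0.0568 for Selenop, 0.0754 for Apoe, 0.0837 for Apoc2, 0.112 for Marco, 0.0607 for Chil3 and 0.0605 for Vcan. Leaving out ICI-alone 2 gave 0.0771 for Lyz2, 0.154 for Adgre1, 0.130 for Chil3 and 0.0636 for Vcan.

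Nos2, which makes nitric oxide from arginine, rose. It stood at 793 and 659 scaled CPM alone and 2016 and 2824 with antibody, 3.33-fold higher with antibody (log2 difference 1.734 ± 0.19 SE, edgeR adjusted p = 0.00209), with no overlap of the sections. The arginine transporter Slc7a2 stood at 632 and 503 alone and 1349.5 and 1601 with antibody (log2 difference 1.38 ± 0.17 SE, edgeR adjusted p = 0.00256). In the arginine and polyamine group, 4 of 17 rose and 1 fell: Odc1, the first enzyme of polyamine synthesis, rose from a low level (14.6 and 13.2 alone and 25.1 and 27.3 with antibody), and ornithine aminotransferase Oat fell (129 and 152 alone and 97.6 and 68.2 with antibody). Of 20 hypoxia and glycolysis genes, 6 rose and 0 fell. The angiogenic factor Vegfa stood at 169 and 159.8 alone and 306 and 304 with antibody (log2 difference 0.89 ± 0.13 SE, edgeR adjusted p = 0.00454), and Slc2a1 at 781 and 678 alone and 1109 and 1387 with antibody (log2 difference 0.77 ± 0.16 SE, edgeR adjusted p = 0.0188). In the iron, heme and NRF2 group 1 of 14 rose, Slc7a11, and 3 fell, among them Hmox1, at 2459 and 2031 alone and 1368 and 1237 with antibody (log2 difference -0.78 ± 0.16 SE, edgeR adjusted p = 0.0166). Without ICI-alone 2 the edgeR adjusted p was 0.132 for Odc1, 0.140 for Oat, 0.0977 for Slc2a1, 0.131 for Ero1l and 0.195 for Slc7a11. Without antibody 1 it was 0.113 for Odc1 and 0.0572 for Slc7a11, and without ICI-alone 1 it was 0.0929 for Slc7a11.

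Chemokines of the type 2 and dendritic programs were among the largest rises. Of 15 alternative activation genes, 10 rose and 3 fell (Mrc1, Chil3 and Cd200r1), so the group split. Ccl17, a ligand of the receptor CCR4, stood at 73.3 and 30.6 scaled CPM alone and 538 and 824 with antibody, 13.1-fold higher with antibody (log2 difference 3.72 ± 0.37 SE, edgeR adjusted p = 0.00115). Ccl22, the other CCR4 ligand, stood at 41.4 and 22.9 alone and 206 and 305 with antibody (log2 difference 2.97 ± 0.28 SE, edgeR adjusted p = 0.000836). Both were several times higher in each antibody section than in either ICI-alone section. The eosinophil chemokines Ccl24 and Ccl11, ligands of CCR3, rose too: Ccl24 stood at 86.4 and 43.6 alone and 279 and 239 with antibody (log2 difference 2.02 ± 0.27 SE, edgeR adjusted p = 0.00341), and Ccl11 at 13.7 and 17.3 alone and 132 and 78.1 with antibody (log2 difference 2.84 ± 0.23 SE, edgeR adjusted p = 0.000683). Eosinophil and mast cell genes were sparse, and 0 of 5 tested passed with edgeR (3 had an unadjusted p below 0.05; DESeq2 gave 0 and the replicate block 1). The receptor gene Ccr3 stood at 1.23 and 1.82 alone and 0.767 and 2.48 with antibody. Of 18 chemokine genes in all, 5 rose and 4 fell. Retnla, a further alternative activation gene, stood at 6.01 and 6.20 alone and 10.7 and 6.20 with antibody and did not pass (edgeR adjusted p = 0.177).

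The promoters of 2 chemokine genes that rose, Ccl17 and Ccl22, and of 2 IL-17A response genes that fell, Cxcl1 and Lcn2, are shown because these genes moved in opposite directions in the same spots. Each run is the 250 bases upstream of the RefSeq start, 5′ to 3′ on the gene's strand, in GRCm38.p6. They lie at chr8:94810203-94810452 (plus strand), chr8:94745434-94745683 (plus), chr5:90890995-90891244 (plus) and chr2:32387740-32387989 (minus). The annotated span of Ccl17 begins before its window, so that window lies inside the gene of a longer transcript. Capitals mark matches on either strand to 3 patterns: TTC and GAA with 4 free bases between them, the spacing known for STAT6, the same with 3 free bases, known for other STAT dimers, and GGG and TCC with 4 free bases, a loose NF-κB form.
Ccl17: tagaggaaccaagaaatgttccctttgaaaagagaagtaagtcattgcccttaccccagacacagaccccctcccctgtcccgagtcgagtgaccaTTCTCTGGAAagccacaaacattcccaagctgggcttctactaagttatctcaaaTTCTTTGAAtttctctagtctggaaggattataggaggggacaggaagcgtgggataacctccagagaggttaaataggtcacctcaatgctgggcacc
Ccl22: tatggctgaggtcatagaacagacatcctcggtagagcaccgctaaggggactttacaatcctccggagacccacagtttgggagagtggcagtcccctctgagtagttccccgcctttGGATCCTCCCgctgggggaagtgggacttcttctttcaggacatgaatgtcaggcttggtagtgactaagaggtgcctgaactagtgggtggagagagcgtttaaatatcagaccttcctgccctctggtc
Cxcl1: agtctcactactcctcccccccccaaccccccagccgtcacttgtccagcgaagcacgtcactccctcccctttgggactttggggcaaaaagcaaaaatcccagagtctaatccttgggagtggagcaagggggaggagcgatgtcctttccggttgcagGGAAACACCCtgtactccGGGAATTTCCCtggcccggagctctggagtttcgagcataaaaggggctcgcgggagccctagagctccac
Lcn2: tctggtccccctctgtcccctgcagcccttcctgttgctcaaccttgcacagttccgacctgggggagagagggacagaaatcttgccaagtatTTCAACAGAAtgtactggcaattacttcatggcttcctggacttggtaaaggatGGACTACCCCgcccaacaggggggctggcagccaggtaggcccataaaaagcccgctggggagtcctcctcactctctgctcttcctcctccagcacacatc
Ccl17 held the STAT6 spacing at bases 97 to 106 and the shorter STAT spacing at 152 to 160, counted from the 5′ end. Ccl22 held the NF-κB form at 120 to 129, and Cxcl1 held it at 162 to 171 and, overlapping, at 180 to 189 and 181 to 190. Lcn2 held the STAT6 spacing at 95 to 104 and the NF-κB form at 149 to 158. Among 32851 promoter windows of this length, 5.85% held the STAT6 spacing, 7.02% the shorter STAT spacing and 16.5% the NF-κB form. A match describes letters, not a site or a cause.

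Genes of cytokines that act on macrophages moved with these chemokines. Of 16 type 2 and GM-CSF genes, 5 rose and 0 fell. Csf2, which encodes GM-CSF, stood at 22.0 and 22.5 scaled CPM alone and 56.9 and 59.5 with antibody (log2 difference 1.38 ± 0.16 SE, edgeR adjusted p = 0.00209), and its receptor subunit Csf2rb at 151 and 171 alone and 317 and 451 with antibody (log2 difference 1.23 ± 0.18 SE, edgeR adjusted p = 0.00427). The macrophage growth factor Csf1 stood at 95.4 and 97.9 alone and 212 and 248 with antibody (log2 difference 1.23 ± 0.14 SE, edgeR adjusted p = 0.00209). Il13 stood at 6.14 and 4.63 alone and 16.9 and 13.6 with antibody (log2 difference 1.59 ± 0.28 SE, edgeR adjusted p = 0.0101), which became 0.160 without antibody 1. The levels of these genes did not overlap between treatments, while the receptor gene Il4ra stood at 321 and 339.8 alone and 341 and 331 with antibody and did not pass (edgeR adjusted p = 0.917). Dendritic cell genes rose as a group, 11 of 14 with 0 fallen. The integrin Itgax stood at 166 and 131 alone and 325 and 331 with antibody (log2 difference 1.14 ± 0.15 SE, edgeR adjusted p = 0.00344), and the activation marker Cd83 at 16.1 and 15.9 alone and 54.0 and 38.4 with antibody (log2 difference 1.62 ± 0.19 SE, edgeR adjusted p = 0.00221). Clec9a, a receptor of cross-presenting dendritic cells, rose from a low level (2.87 and 2.97 alone and 18.2 and 19.8 with antibody). The transcription factor Irf4 stood at 6.28 and 6.36 alone and 34.3 and 34.7 with antibody (log2 difference 2.44 ± 0.21 SE, edgeR adjusted p = 0.000683). Plet1, at 6.55 and 6.03 alone and 52.9 and 50.8 with antibody, and Epcam, at 4.64 and 3.39 alone and 19.5 and 27.3 with antibody, were also among the 10 largest rises.

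Osteoclast and cell fusion genes divided, with 2 of 12 risen and 2 fallen. The fusion proteins Dcstamp, at 89.3 and 77.4 scaled CPM alone and 244 and 408 with antibody (log2 difference 1.93 ± 0.22 SE, edgeR adjusted p = 0.00209), and Ocstamp, at 10.1 and 6.69 alone and 23.8 and 34.7 with antibody, rose. The tartrate-resistant phosphatase Acp5, at 252 and 280.4 alone and 85.3 and 52.1 with antibody (log2 difference -1.85 ± 0.19 SE, edgeR adjusted p = 0.00164), and the receptor gene Tnfrsf11a fell, the last with an edgeR adjusted p of 0.121 without antibody 1. Of 11 MHC class II genes 1 rose and 2 fell, and by library size alone 2 rose and 1 fell.

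T cell and cytotoxic lymphocyte transcripts rose inside the niche. Of 20 T cell genes tested, 12 rose and 0 fell (7 and 0 by DESeq2), and of 13 cytotoxic lymphocyte genes 8 rose and 0 fell. Interferon gamma, Ifng, stood at 25.3 and 21.4 scaled CPM alone and 85.1 and 150.01 with antibody (log2 difference 2.23 ± 0.24 SE, edgeR adjusted p = 0.00180). Cd3e stood at 21.4 and 16.8 alone and 53.3 and 40.9 with antibody (log2 difference 1.38 ± 0.20 SE, edgeR adjusted p = 0.00427), and perforin, Prf1, at 13.9 and 9.75 alone and 31.6 and 37.2 with antibody (log2 difference 1.51 ± 0.23 SE, edgeR adjusted p = 0.00573). The T-bet gene Tbx21, which drives type 1 responses, stood at 4.10 and 3.88 alone and 15.3 and 13.6 with antibody, and the granzyme Gzmc, among the 10 largest rises, at 4.23 and 10.2 alone and 51.7 and 54.5 with antibody (log2 difference 2.79 ± 0.31 SE, edgeR adjusted p = 0.00209). The antibody sections lay above both ICI-alone sections for each of these genes. Of 9 B and plasma cell genes, 0 passed with edgeR (3 had an unadjusted p below 0.05; DESeq2 gave 0, library size alone 1 and the replicate block 3). The lineage gene Cd4 stood at 19.8 and 20.2 alone and 30.9 and 24.8 with antibody, Cd8a stood at 3.82 and 1.98 alone and 9.39 and 3.72 with antibody and Foxp3 at 7.10 and 7.10 alone and 9.58 and 3.72 with antibody, and none passed (edgeR adjusted p = 0.0822, 0.0552 and 0.700). Gzmb stood at 91.4 and 47.2 alone and 119.8 and 100.4 with antibody and did not pass either (edgeR adjusted p = 0.102).

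Interferon gamma response genes followed in part, with 5 of 23 risen and 0 fallen. The CXCR3 ligand Cxcl9 stood at 14.1 and 13.7 scaled CPM alone and 39.3 and 49.6 with antibody (log2 difference 1.61 ± 0.19 SE, edgeR adjusted p = 0.00221), and the feedback inhibitor Socs1 at 441 and 389.6 alone and 842 and 1131 with antibody (log2 difference 1.24 ± 0.17 SE, edgeR adjusted p = 0.00383). Of 15 type I interferon response genes, 3 rose and 1 fell. Among 16 checkpoint genes, 7 rose and 2 fell. The PD-1 ligands Cd274 (PD-L1) and Pdcd1lg2 (PD-L2) stood at 683 and 638 alone and 1031 and 1079 with antibody and at 194 and 122 alone and 348 and 364 with antibody (edgeR adjusted p = 0.0175 and 0.00861). The receptor gene Pdcd1 stood at 6.96 and 8.76 alone and 31.6 and 12.4 with antibody (log2 difference 1.71 ± 0.32 SE, edgeR adjusted p = 0.0120), with antibody 1 highest. The ligand Vsir fell (145 and 137 alone and 68.0 and 91.7 with antibody). Leaving out antibody 1 gave edgeR adjusted p values of 0.0709 for Cd3e, 0.0507 for Cd3d, 0.116 for Lck, 0.0544 for Nkg7, 0.0849 for Tbx21, 0.460 for Pdcd1, 0.0591 for Lag3, 0.0591 for Vsir and 0.0637 for Il17a. For Cd274 they were 0.0550 without ICI-alone 1 and 0.118 without ICI-alone 2.

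Many but not all transcripts known to be induced by IL-17A fell, while that of the cytokine itself rose. Of 21 IL-17 response genes, 11 fell, 2 rose (Csf2 and Ptgs2) and 8 did not pass. The sum of the list overlapped between treatments, at 5372 and 5883 CPM alone and 5306 and 5690 CPM with antibody. The CXCR2 ligand Cxcl1 stood at 206 and 173 scaled CPM alone and 52.5 and 44.6 with antibody, 3.77-fold lower with antibody (log2 difference -1.92 ± 0.16 SE, edgeR adjusted p = 0.000683), and Cxcl5 at 339.9 and 315 alone and 103 and 80.6 with antibody (log2 difference -1.79 ± 0.16 SE, edgeR adjusted p = 0.000683). Lipocalin 2, Lcn2, which binds bacterial siderophores, stood at 315 and 515 alone and 53.7 and 68.2 with antibody (log2 difference -2.83 ± 0.25 SE, edgeR adjusted p = 0.000683), and the acute phase gene Saa3 at 74.8 and 345 alone and 13.6 and 14.9 with antibody (log2 difference -3.93 ± 0.69 SE, edgeR adjusted p = 0.00915). Antibody sections lay below both ICI-alone sections in each case, and Saa3 was highest in ICI-alone 2. Il17a had 39, 37, 74 and 15 UMIs in the niche, or 5.33 and 3.06 alone and 14.2 and 18.6 with antibody (log2 difference 1.92 ± 0.35 SE, edgeR adjusted p = 0.0106). It was the only gene of 10 tested in the IL-17 axis that passed. The receptor gene Il17ra stood at 82.5 and 90.9 alone and 67.8 and 81.8 with antibody and did not pass (edgeR adjusted p = 0.262).

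Of 15 neutrophil genes tested, 6 fell and 0 rose. S100a9 stood at 295 and 426 scaled CPM alone and 125 and 167 with antibody (log2 difference -1.35 ± 0.21 SE, edgeR adjusted p = 0.00573), its partner S100a8 at 137 and 202 alone and 55.8 and 90.5 with antibody (log2 difference -1.34 ± 0.24 SE, edgeR adjusted p = 0.0112), and the collagenase Mmp8 at 63.6 and 52.0 alone and 19.0 and 8.68 with antibody (log2 difference -1.78 ± 0.24 SE, edgeR adjusted p = 0.00358). Among 19 metalloproteinase and inhibitor genes, 5 fell and 2 rose. Gelatinase B, Mmp9, stood at 283 and 302 alone and 129.9 and 119 with antibody (log2 difference -1.22 ± 0.14 SE, edgeR adjusted p = 0.00209), and stromelysin 1, Mmp3, at 30.9 and 48.2 alone and 16.1 and 7.44 with antibody (log2 difference -1.48 ± 0.30 SE, edgeR adjusted p = 0.0155). Inflammatory cytokines divided, with 3 of 19 risen and 5 fallen (3 and 1 by library size alone). The 3 that rose were Il1a (154 and 164 alone and 244 and 433 with antibody), Tnf (84.3 and 93.5 alone and 134 and 217 with antibody) and oncostatin M, Osm (57.2 and 62.9 alone and 111 and 114 with antibody), and Il6 was among the 5 that fell (151 and 129 alone and 101 and 65.7 with antibody). Mmp13 stood at 163 and 82.0 alone and 147 and 148 with antibody and did not pass (edgeR adjusted p = 0.518). Il1b stood at 704 and 786 alone and 852 and 1266 with antibody and did not pass (edgeR adjusted p = 0.110). The edgeR adjusted p without antibody 1 was 0.0911 for S100a8 and 0.112 for Saa3, and without ICI-alone 1 it was 0.108 for Il6.

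Matrix genes fell in large part. Of 28 collagen and matrix genes, 14 fell and 0 rose. Col1a1 stood at 4811 and 8586 scaled CPM alone and 1535 and 652 with antibody (log2 difference -2.60 ± 0.38 SE, edgeR adjusted p = 0.00454), and Col3a1 at 2496 and 4507 alone and 1508 and 465 with antibody (log2 difference -1.81 ± 0.45 SE, edgeR adjusted p = 0.0317). Tenascin C, Tnc, stood at 569 and 688 alone and 218 and 143 with antibody (log2 difference -1.76 ± 0.20 SE, edgeR adjusted p = 0.00209), and Cthrc1, known from activated fibroblasts, at 87.8 and 136 alone and 16.7 and 8.68 with antibody (log2 difference -2.90 ± 0.28 SE, edgeR adjusted p = 0.000939). Periostin, Postn, stood at 21.3 and 43.2 alone and 15.3 and 11.2 with antibody and Timp1 at 1386 and 2245 alone and 1925 and 1266 with antibody, and neither passed (edgeR adjusted p = 0.0558 and 0.667). Of 16 fibroblast and myofibroblast genes, 4 fell, among them Ccn2 and Tgfb2, and 2 rose, Meox1 and Cilp. Cilp, which encodes a matrix protein known from cartilage, was 27.6-fold higher with antibody, with 6 and 22 UMIs alone and 225 and 26 with antibody (log2 difference 4.79 ± 0.32 SE, edgeR adjusted p = 0.000316).

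Of 18 cardiomyocyte genes, 6 rose and 1 fell. Myh6 stood at 241 and 144 scaled CPM alone and 460.2 and 943 with antibody (log2 difference 1.85 ± 0.32 SE, edgeR adjusted p = 0.00938) and creatine kinase, Ckm, at 22.8 and 20.7 alone and 61.9 and 99.2 with antibody (log2 difference 1.78 ± 0.21 SE, edgeR adjusted p = 0.00242), all far below the levels outside the niche. The natriuretic peptide gene Nppa fell (2232 and 1243 alone and 417 and 673 with antibody), with an edgeR adjusted p of 0.0539 without antibody 1. Tnnt2 stood at 1658 and 1243 alone and 769.9 and 1350.1 with antibody and did not pass (edgeR adjusted p = 0.234). Of 16 endothelial genes, 4 fell, among them Emcn, and 1 rose, Flt1, which encodes a VEGF receptor also found on myeloid cells (82.5 and 64.3 alone and 206 and 331 with antibody). The epicardial genes Krt19 (1.23 and 1.98 alone and 14.6 and 1.24 with antibody) and Upk1b (0.683 and 2.40 alone and 18.2 and 1.24 with antibody) passed only with antibody 1 in the fit, with edgeR adjusted p of 0.890 and 0.917 without it. Of 14 proliferation genes, 0 passed with edgeR (4 had an unadjusted p below 0.05; DESeq2 gave 0), and Ccna2 stood at 33.7 and 52.3 alone and 30.7 and 22.3 with antibody. The deiodinase Dio3, at 28.3 and 49.6 alone and 4.02 and 3.72 with antibody (log2 difference -3.30 ± 0.38 SE, edgeR adjusted p = 0.00212), the ankyrin repeat gene Asb5, at 54.9 and 41.5 alone and 5.17 and 6.20 with antibody, Prg4, at 81.1 and 191 alone and 25.7 and 8.68 with antibody, and Nrep, at 17.5 and 44.1 alone and 4.79 and 2.48 with antibody, were among the 10 largest falls, and AY761185, at 3.004 and 0.909 alone and 27.6 and 24.8 with antibody, among the largest rises. Nrep had an edgeR adjusted p of 0.135 without antibody 1.

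Marker list sums in the niche differed between treatments for some cell types and overlapped for others. Summed over its members, the T cell list stood at 391, 346, 816 and 545 CPM, the dendritic cell list at 813, 792, 1562 and 1823 CPM and the cytotoxic list at 406, 328, 867 and 927 CPM. The neutrophil list stood at 1401, 1948, 754 and 899 CPM, the macrophage identity list at 8041, 8973, 6145 and 5895 CPM and the collagen and matrix list at 18136, 30118, 11805 and 5959.5 CPM. For these 6 lists the treatments did not overlap. Many other lists did not overlap either, so this does not set the 6 apart. Examples are the endothelial list, at 1296, 1260, 1419 and 1546 CPM, and the immediate early list, at 1319, 1225, 1667 and 1939 CPM. The cardiomyocyte sums, 10598, 7182, 7999.8 and 12024 CPM, did overlap. So did the monocyte sums, at 1694, 1871, 1841 and 1745 CPM, and those of the B and plasma cell, mural and proliferation lists. Among defining markers, Cd3e, Clec9a and S100a8 had UMIs in all 4 niches, whereas the natural killer receptor gene Klrb1c was at 0 in all 4, inside and outside the niche, and Lyve1 at 0 in antibody 2. No source names the probe set, so the 0 for Klrb1c cannot tell absent cells from a gene the assay does not detect. The part of these cell types in the gene changes was not tested. Depth also differed: with the 4 sums thinned to an equal total, 578 genes passed (291 risen, 287 fallen), 509 of them among the 1545 with the same direction.

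The last comparison asked whether treatment differences were larger or smaller in the niche than in the remaining spots of the same sections. A positive log2 interaction means that the ratio of niche to remaining spots was higher with antibody. Levels in this comparison are scaled CPM over the 8 sums of niche and remaining spots. Of 18188 genes, 347 had a higher ratio with antibody and 449 a lower one (1.91% and 2.47%, together 4.38%) by edgeR at an adjusted p below 0.05. With the replicate block, which adds a term for the batch, 2176 genes passed. Scaling by library size alone moved the median from 0.068 to 0.40 and the split to 752 higher and 108 lower, and DESeq2's size factors gave 317 and 793. Leaving out ICI-alone 2, antibody 1 or antibody 2 left 195, 416 and 2642 genes.

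Neutrophil genes had higher niche-to-rest ratios with antibody. S100a9 stood at 290.3, 389, 101 and 137 in the niche and 228, 325, 13.1 and 16.0 in the remaining spots (log2 interaction 2.71 ± 0.22 SE, edgeR adjusted p = 0.000352). Alone it was nearly as high outside as inside, and with antibody it was several times higher inside. S100a8 stood at 135, 185, 45.3 and 74.0 in the niche and 80.7, 125, 5.1004 and 7.12 in the remaining spots (log2 interaction 2.60 ± 0.21 SE, edgeR adjusted p = 0.000352). The neutrophil chemokine receptor Cxcr2 stood at 24.8, 33.3, 17.5 and 19.3 in the niche and 17.2, 26.2, 1.58 and 1.30 in the remaining spots (log2 interaction 3.16 ± 0.28 SE, edgeR adjusted p = 0.000410). Il1f9 stood at 148, 148, 107 and 138 in the niche and 21.7, 39.1, 2.94 and 2.67 in the remaining spots (log2 interaction 3.07 ± 0.30 SE, edgeR adjusted p = 0.00114). For these 4 genes the difference between treatments was larger outside the niche than inside it. Of 20 neutrophil genes, 8 had a higher ratio and 0 a lower one, and of 22 IL-17 response genes, 9 and 0.

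The same direction held for 8 of 22 metalloproteinase and inhibitor genes, with 0 lower. Mmp9 stood at 278, 276, 106 and 97.3 in the niche and 38.3, 153, 4.63 and 4.96 in the remaining spots (log2 interaction 2.57 ± 0.52 SE, edgeR adjusted p = 0.0240), and Timp1 at 1363, 2050.3, 1565 and 1035 in the niche and 838, 1812, 205 and 237 in the remaining spots (log2 interaction 2.09 ± 0.36 SE, edgeR adjusted p = 0.0131). Il1b stood at 692, 718, 693 and 1035 in the niche and 134, 241, 66.6 and 56.6 in the remaining spots (log2 interaction 1.81 ± 0.35 SE, edgeR adjusted p = 0.0191), lower outside the niche with antibody and not lower inside it. Nos2 stood at 779.6, 602, 1639 and 2308 in the niche and 105, 144, 97.4 and 96.5 in the remaining spots (log2 interaction 1.85 ± 0.34 SE, edgeR adjusted p = 0.0167), Ifng at 24.8, 19.5, 69.2 and 123 in the niche and 7.51, 5.58, 10.8 and 15.5 in the remaining spots (log2 interaction 1.05 ± 0.21 SE, edgeR adjusted p = 0.0212) and Ccl22 at 40.7, 20.9, 167 and 249 in the niche and 12.2, 11.8, 23.7 and 13.3 in the remaining spots (log2 interaction 2.17 ± 0.40 SE, edgeR adjusted p = 0.0163). These 3 genes were higher with antibody inside the niche, and differed less outside it. Ccl17 stood at 72.1, 28.0, 438 and 674 in the niche and 12.5, 11.2, 54.9 and 30.7 in the remaining spots and did not pass (edgeR adjusted p = 0.0512). Il6 stood at 149, 118, 82.3 and 53.7 in the niche and 44.8, 91.2, 11.4 and 9.89 in the remaining spots (log2 interaction 1.65 ± 0.38 SE, edgeR adjusted p = 0.0362). Without ICI-alone 2 the edgeR adjusted p was 0.124 for Timp1, 0.231 for Nos2, 0.191 for Il1b, 0.165 for Ifng and 0.228 for Il6.

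Matrix and muscle genes were also among the 10 largest positive interactions, which included Cxcl13, Cilp, Cxcr2, Il1f9, Thbs4, Myh7, Sfrp2, Mmp3 and S100a9. The B cell chemokine Cxcl13 stood at 0.671, 3.09, 1.71 and 3.04 in the niche and 14.4, 49.8, 1.22 and 4.29 in the remaining spots (log2 interaction 4.25 ± 0.57 SE, edgeR adjusted p = 0.00498), a contrast made outside the niche. The beta myosin heavy chain Myh7, a stress gene of the ventricle, stood at 51.7, 56.5, 81.0 and 66.9 in the niche and 1247, 2415, 290.0 and 424 in the remaining spots (log2 interaction 2.82 ± 0.38 SE, edgeR adjusted p = 0.00498). Mmp3 stood at 30.3, 44.0, 13.1 and 6.08 in the niche and 77.1, 163, 4.30 and 9.28 in the remaining spots (log2 interaction 2.72 ± 0.42 SE, edgeR adjusted p = 0.00992). Cilp stood at 0.806, 1.66, 35.1 and 26.3 in the niche and 12.3, 6.58, 15.9 and 12.0 in the remaining spots (log2 interaction 3.83 ± 0.42 SE, edgeR adjusted p = 0.00198), a contrast made inside the niche. Of 29 collagen and matrix genes, 7 had a higher ratio and 1 a lower one. Leaving out antibody 1 gave edgeR adjusted p values of 0.198 for Sfrp2, 0.0839 for Cxcl13 and 0.552 for Mmp3.

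The 10 largest negative interactions were Nrep, Asb5, Mylk4, Mmp15, Rbp7, Sparcl1, Abca8a, Kcnj2, Lrrc3b and Adra1b, several of them muscle or vessel genes. The matricellular gene Sparcl1 stood at 57.9, 74.6, 18.9 and 13.2 in the niche and 179, 178, 303 and 175 in the remaining spots (log2 interaction -2.51 ± 0.26 SE, edgeR adjusted p = 0.00157), and the potassium channel gene Kcnj2 at 17.6, 21.5, 10.3 and 14.2 in the niche and 48.6, 37.3, 131 and 86.97 in the remaining spots (log2 interaction -2.31 ± 0.32 SE, edgeR adjusted p = 0.00591). Nrep stood at 17.2, 40.3, 3.90 and 2.03 in the niche and 18.1, 40.3, 42.5 and 20.1 in the remaining spots (log2 interaction -3.40 ± 0.27 SE, edgeR adjusted p = 0.000352): niche and surroundings were close alone and far apart with antibody. Rbp7 and Abca8a had 0 UMIs in the niche of antibody 2, where 3 UMIs would be 3.93 CPM, so their contrasts rest on few molecules. Other named genes were also low there, at 2.03 scaled CPM for Nrep and 3.04 for Cxcl13, Adra1b and Lrrc3b. Mylk4 and Sfrp2 stood at 4.05 and Asb5 and Mmp15 at 5.07. On this scale the 6 UMIs of Mmp3 in that niche were 6.08, so these values rest on few molecules too. Of 16 endothelial genes, 2 had a higher and 5 a lower ratio, and of 9 mural genes 0 and 3 (0 and 0 by library size alone). Leaving out antibody 1, 0.271 for Mylk4, 0.131 for Rbp7, 0.391 for Abca8a, 0.0769 for Lrrc3b and 0.494 for Adra1b were the edgeR adjusted p values. For Abca8a they were 0.0752 without ICI-alone 1 and 0.0602 without ICI-alone 2.

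Few T cell and macrophage identity genes passed this comparison, as held for all 18188 genes, of which 4.38% passed. Of 21 T cell genes 0 passed with edgeR in either direction, although 12 had an unadjusted p below 0.05. DESeq2 gave 0, library size alone 5 and the replicate block 6, all with a higher ratio, so the difference for T cell genes is not settled by these sections. Cd3e stood at 21.1, 15.3, 43.3 and 33.4 in the niche and 19.7, 15.6, 19.8 and 22.9 in the remaining spots (edgeR adjusted p = 0.0549). Of 18 macrophage identity genes 1, Cd14, had a higher ratio and 0 a lower one. Cd68 stood at 645, 629, 284 and 219 in the niche and 172, 222, 56.9 and 78.7 in the remaining spots and Spp1 at 2394, 2394, 576 and 447 in the niche and 177, 406, 55.8 and 46.9 in the remaining spots, and neither passed (edgeR adjusted p = 0.726 and 0.856). Their levels were lower with antibody inside and outside the niche, with log2 interactions of 0.22 ± 0.30 SE and 0.15 ± 0.38 SE. Col1a1 stood at 4730.2, 7842, 1248 and 533 in the niche and 2799, 8513, 323 and 431 in the remaining spots and did not pass (edgeR adjusted p = 0.414).

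**Figure D5:**
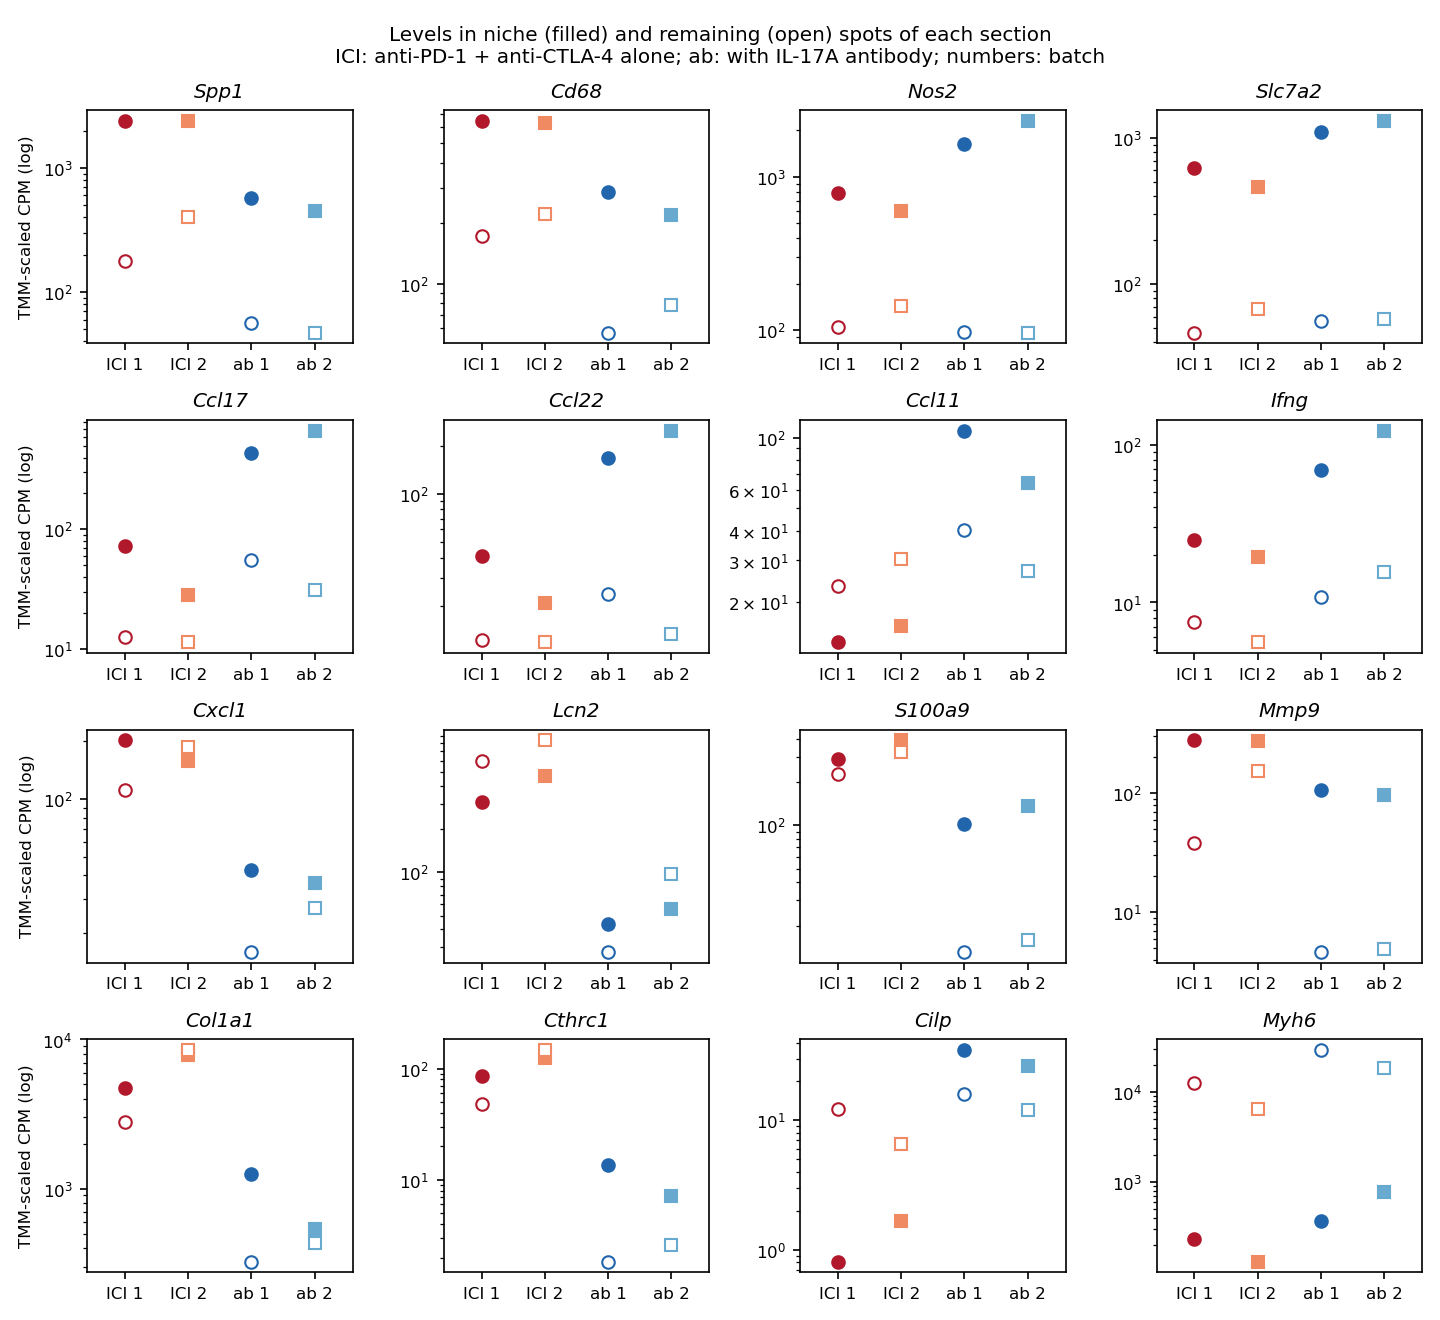
Scaled CPM on a log axis of selected genes in niche spots (filled) and remaining spots (open), 1 pair per section, with ICI for ICI alone and ab for antibody. S100a9 stands at 290.3, 389, 101 and 137 in the niche and at 13.1 and 16.0 outside it with antibody, while Nos2 and Ccl22 are higher with antibody inside the niche.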

How the data were processed

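Visium spot counts of 4 mouse heart sections were used, with 73167202, 66255242, 47882576 and 33005923 UMIs in ICI-alone 1, ICI-alone 2, antibody 1 and antibody 2. The counts deposited for each spot are unnormalized UMIs per gene, made with Space Ranger 2.1.0 on mm10, and Seurat 5.1.0 is also listed, per the submitters' processing notes and file headers. The deposited tables also give Moran's I, a score per gene, with an adjusted p-value that was not used. No source names the probe set. Of the 19465 genes listed per matrix, 11 repeated symbols were kept out of the gene lists.

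UMIs were summed over niche spots and over remaining spots of each section, so the section is the replicate (n = 2 per group). The niche was set against the remaining spots by library-size CPM with 1 CPM added and a 2-fold minimum in all 4 sections, without a test. Treatments were compared with edgeR 4.0.16 (quasi-likelihood test, filterByExpr, trimmed-mean scaling, Benjamini-Hochberg threshold 0.05) in R 4.3.3. The same test on 8 sums with a term per section gave the interaction. DESeq2 1.42.0 and limma 3.58.1 were alternatives, as were other scalings, filters, thresholds, depth minimums and leaving out each section. Both fits were tested on simulated counts, drawn independently with the same spread for every gene and no section or batch effect. Of 100 genes changed by a log2 difference of 1, the treatment fit recovered 59 and the interaction fit 27. For a log2 difference of 2 they recovered 96 and 67 of 100. Of unchanged genes, 8 of 13332 and 5 of 17919 were called. With those settings this cannot show the rate of false calls in these sections. A gene that did not pass is thus not shown to be unchanged. Spot barcodes are positional and recur between sections.

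Named genes were a fixed panel, the 20 highest and 10 lowest niche ratios, the 10 largest rises and falls per test with at least 20 CPM in a group mean (for the interaction, in a mean of treatment and spot class), and up to 4 leading members per list. Krt19, Upk1b and members named only to complete a small count were chosen after their values were seen, and a gene that the rule gives for the interaction is not reported here. Members and lists were chosen with earlier results of these data known. The batch number pairs sections by label. The same-batch correlation of deviations was -0.0805 for niche sums and 0.159 for whole sections, over 13268 genes, and the tests reported here had no batch term.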

Additional observations from a re-analysis of the deposited data

Results flagged for a closer look

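The niche-to-rest ratio differed between treatments, by the edgeR interaction test at an adjusted p below 0.05, for these named genes. Log2 interactions above 0 were 4.25 for Cxcl13, 3.83 for Cilp, 3.16 for Cxcr2, 3.07 for Il1f9, 3.01 for Thbs4, 2.82 for Myh7, 2.81 for Sfrp2, 2.72 for Mmp3, 2.71 for S100a9, 2.60 for S100a8, 2.57 for Mmp9, 2.17 for Ccl22, 2.09 for Timp1, 1.85 for Nos2, 1.81 for Il1b, 1.65 for Il6 and 1.05 for Ifng. Log2 interactions below 0 were -3.40 for Nrep, -2.93 for Asb5, -2.61 for Mylk4, -2.60 for Mmp15, -2.60 for Rbp7, -2.51 for Sparcl1, -2.44 for Abca8a, -2.31 for Kcnj2, -2.28 for Lrrc3b and -2.26 for Adra1b.

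Outside the depth minimum, 4 spots of antibody 2 with fewer than 5000 UMIs also passed the Arg1 and Mmp12 share.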

How the results depend on the processing

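The count of niche genes changed by treatment (1545) became 665 with DESeq2, 2554 without a filter on low counts (628 risen, 1926 fallen), 2367 at a 0.2% threshold, 897 at 0.8%, 964 at 10000 UMIs per spot, 1006 with members chosen by Mmp12 alone, 578 with sums thinned to an equal total, 528 with members from 0.4 to below 0.8%, and 2672 with limma on mean log2 values (246 risen, 2426 fallen), whose median moved to -0.49. Leaving out 1 section gave 0 to 1124. The interaction count (796) became 1367 at 0.8%, 300 thinned, 1233 with members from 0.4 to below 0.8%, 404 with limma and 195 to 2642 with 1 section left out. A filter at 10 CPM gave 387 higher and 154 lower. With the replicate block the counts were 2073 for treatment and 2176 for the interaction, and 0 of 100 and 0 of 27 named calls were lost. Lost named calls numbered 10 of 100 and 1 of 27 with DESeq2, 10 of 98 and 14 of 27 with limma, 9 of 93 and 8 of 27 with thinned sums, and 18 of 98 and 1 of 27 in the 0.4 to below 0.8% band. Without antibody 1 they numbered 24 of 100 and 8 of 27, without ICI-alone 2 9 of 100 and 6 of 27, and without antibody 2 100 of 100 and 0 of 27. The count of genes 2-fold apart between niche and remaining spots stayed within 1.5 times of 1806 (1344 to 2428). The niche share became 10.8, 20.5, 11.2 and 2.55% at a 0.2% threshold and 5.46, 8.46, 7.20 and 0.981% at 0.8%.

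These log2 differences changed sign: Retnla to -0.36 at 0.8%; Il4ra to -0.14 without a filter, -0.057 without ICI-alone 1, -0.017 without antibody 1, -0.018 without antibody 2, -0.00054 with Arg1 alone and -0.13 with limma. Foxp3 went to -0.95 without antibody 1, -0.12 in the 0.4 to below 0.8% band and -0.21 with limma. Mmp13 went to -0.15 without ICI-alone 2, -0.61 in that band and -0.064 with limma. Timp1 went to 0.20 without ICI-alone 2, 0.021 without antibody 2 and 0.035 with Mmp12 alone. Krt19 and Upk1b went to -0.43 and -0.44 without antibody 1. With 1 section left out at a time the ranges reached 0.065 for Il4ra, 0.37 for Foxp3, 0.80 for Mmp13, -0.54 for Timp1, 3.16 for Krt19 and 4.28 for Upk1b. Limma gave -0.035 for Gzmb, -0.11 for Cd4, 0.014 for Tnnt2 and an Il6 interaction of -0.0079. The cause of these changes was not tested. With 2 sections a group and 763990 niche UMIs in antibody 2, genes of a few CPM there rest on few molecules.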
